A study of Mus with 12 samples.

Results

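The genes described here are 45 genes of the extracellular matrix, namely proteoglycans, hyaluronan enzymes, elastic fibre genes and matricellular glycoproteins. They were chosen by name with earlier results of these data known, so shares of members set beside those of all rows only describe the list. The row of a gene was taken in each of the 2 deposited gene tables where it carried the symbol and an Ensembl transcript. All 45 genes had such a row, out of 87235 rows in the first table and 40787 in the second. RNA had been sequenced from the whole uteri of 12 pregnant ICR mice, an outbred stock, which were 8 weeks old per the labels of the series. The implantation stage held the groups E0.5 and E4.5 and the labor stage the groups E15.5 and E18.5, where the number is the day after mating, with 3 mice per group and 1 mouse per library. No treatment or altered allele is named for any group, and no group of mice that were not pregnant was analysed here. The study compared the days of each stage because the level of progesterone differs between them. A whole uterus holds smooth muscle, stroma, epithelium, vessels and blood, and at the later days it can also hold remains of the decidua and fetal membranes.

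The matrix of the uterus is rebuilt in each pregnancy. Small leucine-rich proteoglycans such as decorin coat collagen fibrils and set their diameter and spacing, while versican binds the long sugar chain hyaluronan and makes a soft, hydrated matrix. Elastic fibres consist of a core of cross-linked elastin on a scaffold of fibrillin microfibrils, which is assembled by fibulins and lysyl oxidases and gives a stretched organ its recoil. The latent TGF beta binding proteins hold TGF beta in that scaffold, and the thrombospondins, tenascins, periostin and SPARC are matricellular proteins, which change how cells attach to the matrix more than they carry load.

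The summed count of a library lay between 58020989 and 70906881 in the 6 libraries of the implantation stage, and the second table holds no counts, so the depth of the labor stage is unknown. In several libraries the markers of other tissues stood apart from the remaining libraries of the stage. E4.5 replicate 3 had a summed level of 1356 FPKM over 7 ovary markers (Star, Cyp11a1, Hsd3b1 and others), where the other libraries of the implantation stage had 4.29 to 6.49 FPKM. Its 5 oviduct markers summed to 85.1 FPKM against 4.11 to 16.2 FPKM, and its 7 smooth muscle markers to 206 FPKM against 798 to 1214 FPKM. E15.5 replicate 1 had 1345 FPKM over 5 decidua markers, nearly all of it from the prolactin family gene Prl8a2, against 45.3 to 88.9 FPKM in the other libraries of the labor stage. Its yolk sac markers summed to 2.33 FPKM against 94.5 to 765 FPKM. E4.5 replicate 3 had the highest or the lowest value of its 6 libraries at 24 of 44 tested members (54.5%, against 42.2% of all tested rows), and E15.5 replicate 1 at 31 of 43 (72.1%, against 52.3%). In E18.5 replicate 1 the mesothelium markers summed to 44.97 FPKM against 15.1 to 20.4 FPKM in the other libraries of the labor stage, and it had the highest or lowest value at 22 of 43 members (51.2%, against 42.2% of all rows). In E0.5 replicate 1 the fat markers summed to 62.0 FPKM against 4.10 to 29.8 FPKM, and it had such a value at 9 of 44 members (20.5%, against 34.7%). Fits were therefore also made with each library left out, and many values of the members are given with and without the library concerned. FPKM are fragments scaled by transcript length and by the number of mapped fragments, so that levels of different genes can be compared within a table.

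Between E0.5 and E4.5 the collagen-binding proteoglycans decorin, lumican and asporin, the cross-linking enzyme lysyl oxidase and the TGF beta binding protein Ltbp4 were higher at E0.5, while versican, the link protein Hapln1 and the hyaluronan synthase Has2 were higher at E4.5. The criterion of the study was a log2 fold change of 1 or more in either direction at an unadjusted p below 0.05, and it was met by 13 members (against 12.2% of all tested rows) in edgeR's quasi-likelihood test on counts. At E0.5, 9 of the 44 tested members were upregulated. This is 20.5% of the members, where 6.37% of all 59732 tested rows and 6.36% of the protein-coding rows met it in this direction. Another 4 members (9.09%) were lower at E0.5, against 5.82% of all rows and 8.26% of the protein-coding rows. Of these, Hapln1 passed the minimum FPKM of the test through the E4.5 group alone. With a Benjamini-Hochberg adjusted p under 0.05 over all tested rows of edgeR's test, 3 members were called (6.82%, against 1.22% of all rows and 2.94% of the protein-coding rows), and these were Aspn, Ltbp4 and Vcan. With 1 library left out, 0 or 1 members passed it, except without E4.5 replicate 3. Regardless of the size of the change, 19 members had an unadjusted p below 0.05 (43.2%, against 17.0%). The FPKM of the groups did not overlap at 15 members that were higher at E0.5 (34.1%, against 12.8% of all rows) and at 6 that were lower (13.6%, against 12.5%). The median log2 fold change of the members was 0.24, beside -0.01 for all tested rows and -0.16 for the protein-coding rows. In RNA from a whole organ, fewer cells of a type and less RNA per cell cannot be told apart. Stromal fibroblast markers also moved in this comparison, with a summed level of 378 to 537 FPKM at E0.5 compared with 189 to 356 FPKM at E4.5, where Col1a2 and Dpt of the 6 markers met the criterion. Epithelial markers summed to 183.3 to 231.2 FPKM at E0.5 and 61.4 to 148 FPKM at E4.5, leukocyte markers to 30.7 to 40.4 FPKM and 18.7 to 19.99 FPKM, and endothelial markers to 18.8 to 21.5 FPKM and 29.2 to 53.7 FPKM. Of the leukocyte markers, Adgre1, Csf1r and Itgam met the criterion as higher at E0.5. Ptprc had a log2 fold change of -0.41, and the Cd68 row, which also holds Eif4a1, Senp3 and other genes, had 0.08. The decidua markers summed to 17.7 to 21.3 FPKM at E0.5 and 9.66 to 13.6 FPKM at E4.5, but 2 of them passed the adjusted p in opposite directions, with Alpl 10.2-fold higher (edgeR adjusted p = 0.00631) and Bmp2 10.8-fold lower at E0.5 (edgeR adjusted p = 0.0187). The part of cell composition in the values of the members was not tested.

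**Figure D1:**
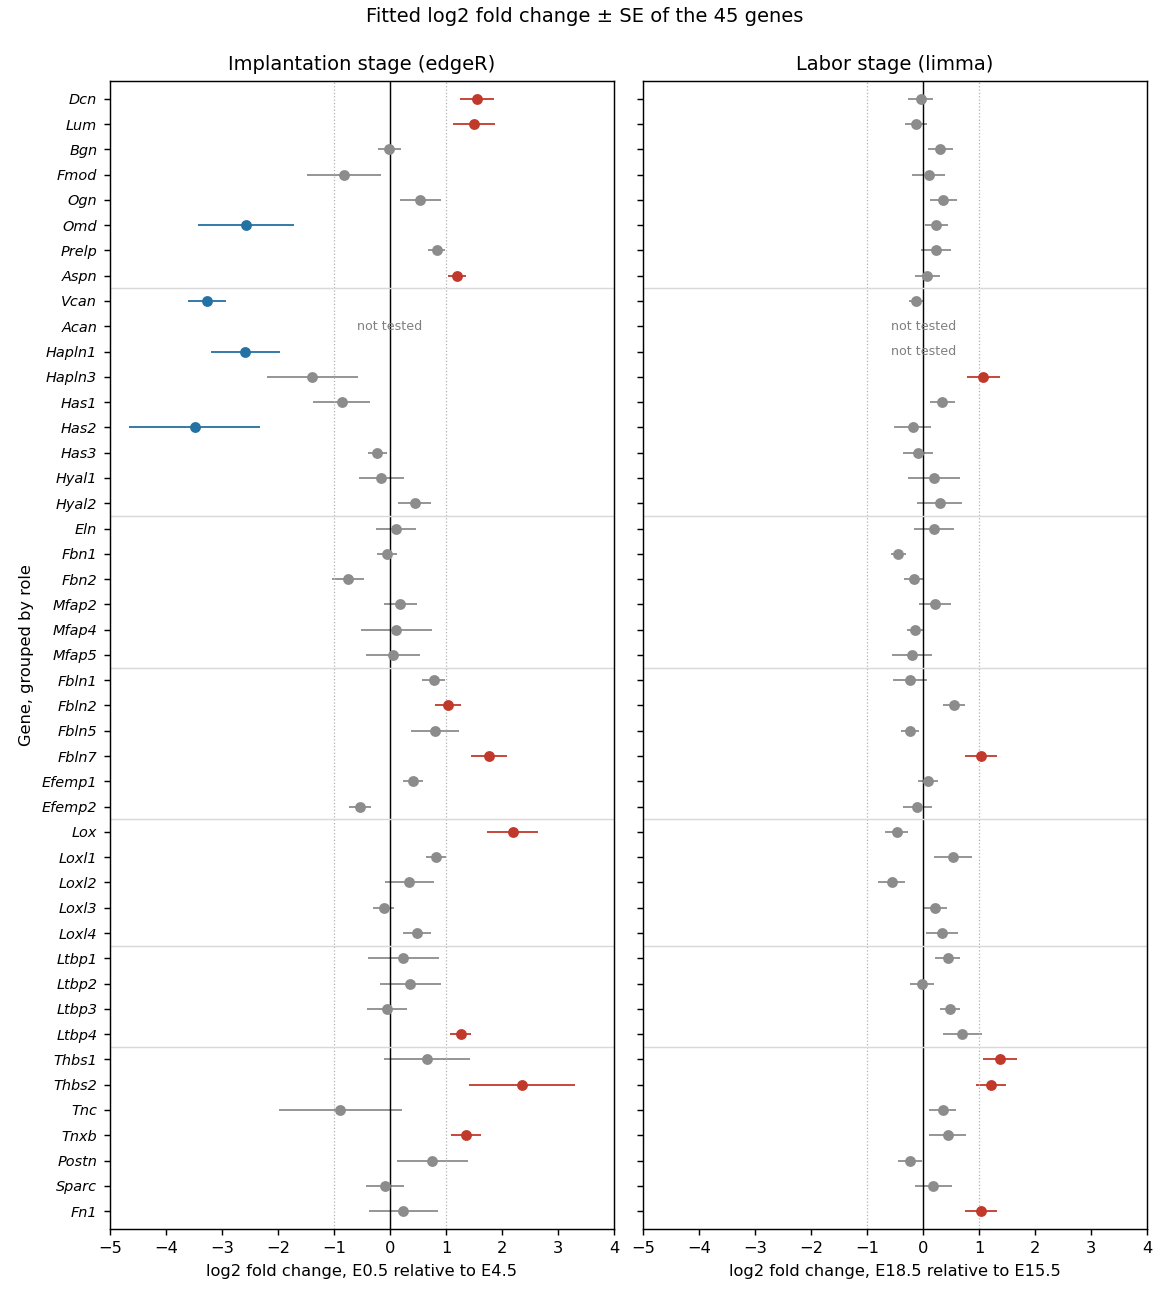
Fitted log2 fold change of each of the 45 genes with its standard error (horizontal bars), on the left for E0.5 relative to E4.5 (edgeR) and on the right for E18.5 relative to E15.5 (limma), in order of the role of the gene. Red and blue points met the criterion of the study as higher or lower on the first-named day (9 and 4 on the left, 5 and 0 on the right), grey points did not, and dotted lines mark a log2 fold change of 1 and -1.

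Among the 8 small leucine-rich proteoglycans, 3 were upregulated at E0.5 and 1 was lower. Decorin (Dcn, chr10:97479609-97518143, GRCm38), which binds collagen fibrils, had 70.9, 78.8 and 116 FPKM in replicates 1, 2 and 3 at E0.5 compared with 28.3, 40.7 and 22.1 FPKM at E4.5. The groups did not overlap, and Dcn was 2.94-fold higher at E0.5 (log2 fold change 1.55, standard error 0.30, edgeR adjusted p = 0.0675). Lumican (Lum, chr10:97565128-97572703), which regulates fibril assembly, had 59.3, 69.6 and 86.8 FPKM at E0.5 compared with 18.04, 17.2 and 42.3 FPKM at E4.5. All E0.5 libraries lay above all E4.5 libraries, of which replicate 3 was the highest, and the fold change was 2.84 (edgeR adjusted p = 0.114). Asporin (Aspn, chr13:49544443-49567565), a relative of decorin, had 17.3, 15.0 and 14.4 FPKM at E0.5 compared with 6.81, 6.75 and 6.92 FPKM at E4.5. The groups were far apart beside their spread, and Aspn passed the adjusted p (log2 fold change 1.19, standard error 0.16, edgeR adjusted p = 0.0290). Osteomodulin (Omd, chr13:49582462-49592822) went the other way from a low level, with 0.0685, 0.396 and 0.414 FPKM at E0.5 compared with 1.13, 0.678 and 3.60 FPKM at E4.5. Its log2 fold change of -2.57 became -1.63 without E4.5 replicate 3, where it no longer met the criterion. Prelp, which anchors basement membranes to collagen, was higher in every E0.5 library, with 16.7 ± 1.07 FPKM (SD, n = 3) against 9.42 ± 0.328 FPKM (SD, n = 3). Its log2 fold change of 0.84 lay under the minimum of the criterion. Biglycan (Bgn), the closest relative of decorin, had overlapping groups and nearly equal means of 24.8 and 25.2 FPKM. Ogn and Fmod overlapped between the days as well, and E4.5 replicate 3 was the highest library of both.

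Of the 8 tested genes for hyaluronan and its binding proteoglycans, 3 were lower at E0.5 and 0 were upregulated. Versican (Vcan, chr13:89655312-89742509), the large proteoglycan that binds hyaluronan, had 1.02, 0.861 and 0.867 FPKM at E0.5 compared with 12.7, 7.43 and 6.13 FPKM at E4.5. The lowest E4.5 library was far above the highest E0.5 library, and Vcan was 9.58-fold lower at E0.5 (log2 fold change -3.26, standard error 0.34, edgeR adjusted p = 0.0192). Hapln1 (chr13:89539796-89611652) encodes a link protein that fixes versican and aggrecan to hyaluronan and was low on both days, with 0.0298, 0.0503 and 0.127 FPKM at E0.5 compared with 0.282, 0.581 and 0.436 FPKM at E4.5. These groups did not overlap either, with a log2 fold change of -2.58 (standard error 0.61). The synthase Has2 (chr15:56665627-56694539), which spins out the hyaluronan chain, had 0.424, 0.168 and 0.00998 FPKM at E0.5 compared with 3.28, 2.71 and 0.689 FPKM at E4.5. It had the largest fitted change of the members, 11.2-fold lower at E0.5, but also a wide standard error (log2 fold change -3.48, standard error 1.17, edgeR adjusted p = 0.206). Leaving out E0.5 replicate 2 or E4.5 replicate 1 took its p over the threshold. Aggrecan (Acan), the cartilage relative of versican, had too low a mean for the test, with 0 counts over the 3 E0.5 libraries and 322 over the 3 E4.5 libraries. Against a floor of 3 counts over the E0.5 group, its count summed over the group was at least 106-fold lower at E0.5, scaled by depth. The E4.5 counts were 31, 118 and 173 in replicates 1, 2 and 3. This bound therefore rests most on replicate 3, and it was not computed without that library. Has3, a further synthase, was lower in every E0.5 library, but only by a log2 fold change of -0.23. The groups overlapped for Has1, Hapln3 and the hyaluronidases Hyal1 and Hyal2, which cut hyaluronan.

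None of the 6 genes of the elastic fibre core and its microfibrils met the criterion between E0.5 and E4.5, and the groups overlapped at all 6. Elastin (Eln) had 3.59 ± 1.30 FPKM (SD, n = 3) at E0.5 compared with 3.31 ± 0.900 FPKM (SD, n = 3) at E4.5, and fibrillin 1 (Fbn1) had 12.2 ± 1.82 and 12.8 ± 1.49 FPKM (SD, n = 3). The log2 fold changes of Eln, Fbn1, Mfap2, Mfap4 and Mfap5 lay between -0.05 and 0.19, and that of fibrillin 2 (Fbn2) was -0.74 with 4 ± 0.779 against 6.71 ± 1.98 FPKM (SD, n = 3). Without E4.5 replicate 3, Mfap4 met it. Of the 6 fibulins, 2 were upregulated at E0.5. Fbln7 (chr2:128862981-128897034) had 5.97, 7.83 and 7.53 FPKM at E0.5 compared with 2.59, 2.37 and 1.31 FPKM at E4.5, 3.40-fold higher and without overlap (edgeR adjusted p = 0.0588). Fbln2, which binds fibrillin and fibronectin, had 8.81, 9.78 and 10.5 FPKM at E0.5 compared with 4.99, 5.77 and 3.50 FPKM at E4.5. The groups were apart, but its log2 fold change of 1.04 is close to the minimum, and the call was lost without E4.5 replicate 3 (0.84) and without E0.5 replicate 3 (0.97). Fbln1 and Efemp1 were higher in every E0.5 library by log2 fold changes of 0.78 and 0.41. Efemp2, which brings lysyl oxidase to elastin, was lower in every E0.5 library by a log2 fold change of -0.53. Fbln5, which tethers elastin to cells, overlapped between the days. Among the 5 lysyl oxidases, which cross-link collagen and elastin, only Lox met the criterion. Lox had 26.8, 27.2 and 37.2 FPKM at E0.5 compared with 5.78, 11.2 and 3.18 FPKM at E4.5. The E0.5 libraries all lay above 11.2 FPKM, the highest E4.5 value, and Lox was 4.56-fold higher (log2 fold change 2.19, standard error 0.46, edgeR adjusted p = 0.0772). Loxl1 and Loxl4 did not overlap between the groups either, but had log2 fold changes of 0.83 and 0.48, and Loxl2 and Loxl3 overlapped.

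Among the 4 latent TGF beta binding proteins, Ltbp4 (chr7:27305136-27337692), which also organizes elastic fibres, was upregulated at E0.5. It had 49.3, 57.9 and 56.9 FPKM at E0.5 compared with 19.9, 27.5 and 21.9 FPKM at E4.5, and no libraries overlapped. Ltbp4 was 2.39-fold higher and passed the adjusted p (log2 fold change 1.26, standard error 0.18, edgeR adjusted p = 0.0352). Ltbp1, Ltbp2 and Ltbp3 overlapped between the groups, and E4.5 replicate 3 was the highest of the 6 libraries for each of them. Of the 7 matricellular and adhesive glycoproteins, Thbs2 and Tnxb were upregulated at E0.5. Thbs2 (chr17:14665500-14694235), a thrombospondin that limits vessel growth and shapes collagen fibrils, had 5.91, 6.88 and 7.81 FPKM at E0.5 compared with 0.317, 0.331 and 3.52 FPKM at E4.5. E4.5 replicate 3 stood far above the other E4.5 libraries and still below each E0.5 library, with a log2 fold change of 2.36 and a standard error of 0.94. The call of Thbs2 was lost when any 1 of the other 5 libraries was left out (log2 fold changes of 1.88 to 2.45), and it held in 1 of 6 such fits, the one without E4.5 replicate 3. Tenascin X (Tnxb, chr17:34660457-34800976), which spaces collagen fibrils, had 16.7, 21.3 and 13.7 FPKM at E0.5 compared with 5.14, 8.99 and 6.22 FPKM at E4.5. The groups were apart by a factor of 2.57 in the fit (edgeR adjusted p = 0.0674). Its row also holds the copy Tnxa, so the share of reads of each is uncertain. Thbs1, Tnc, Sparc and Fn1 overlapped between the groups, and SPARC, a collagen chaperone, had means of 109 FPKM at E0.5 compared with 118 FPKM at E4.5. Fibronectin (Fn1) had 49.3 ± 11.3 against 41.4 ± 28.9 FPKM (SD, n = 3), with 10.9 FPKM in E4.5 replicate 3, and its log2 fold change of 0.24 turned to -0.22 without that library. Periostin (Postn), which helps lysyl oxidase to cross-link collagen, was higher at E0.5 in all libraries, but E4.5 replicate 1 lay only just below them and the log2 fold change was 0.76 with a standard error of 0.63. E4.5 replicate 3 had 4.75 FPKM against 33.7 and 24.6 FPKM in its group, and without it the value was 0.28.

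**Figure D2:**
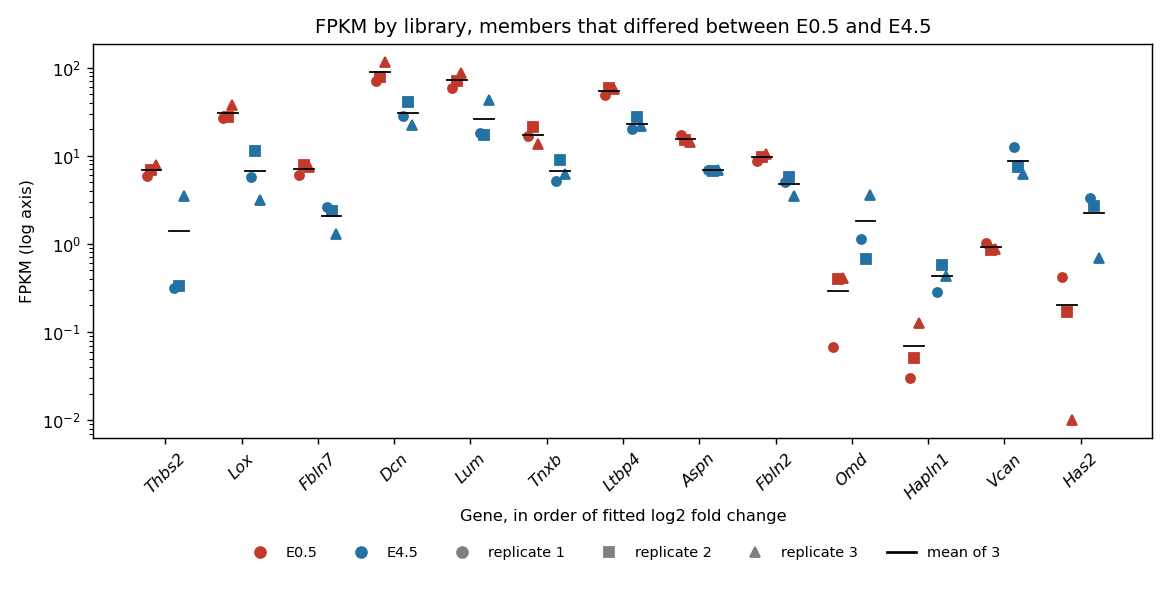
FPKM (log axis) of the 13 members that met the criterion between E0.5 (red) and E4.5 (blue), 1 symbol per library with its shape giving the replicate, and a bar at the mean of 3. The E0.5 libraries lie above the E4.5 libraries at the 9 genes from Thbs2 to Fbln2 and below them at Omd, Hapln1, Vcan and Has2, and E4.5 replicate 3 is apart from its group at Thbs2, Has2, Lum and Omd, among others.

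Because E4.5 replicate 3 carried markers of the ovary and oviduct, the comparison was repeated without it. Then 19 members met the criterion (against 14.1% of all rows), 15 members were upregulated at E0.5 (against 7.82% of all rows), 4 were lower (against 6.31%), and 14 passed the adjusted p of edgeR's test (against 6.08%). The median log2 fold change of the members was then 0.46. Of the 13 members called with all libraries, 11 met the criterion in the same direction, and Omd and Fbln2 did not. Another 8 met it only without this library, of which Ogn, Mfap4, Fbln5, Ltbp1, Ltbp2, Thbs1 and Tnc were higher at E0.5 and Hapln3 was lower. Thrombospondin 1 (Thbs1), which activates latent TGF beta, had 65.1, 45.6 and 25.3 FPKM at E0.5 compared with 9.04, 12.5 and 67.2 FPKM at E4.5. Only the third E4.5 library was as high as those of E0.5, and the log2 fold change was 0.66 with it and 2.06 without it. Tenascin C (Tnc), an anti-adhesive protein of tissues under repair, had 8.00, 6.22 and 2.13 FPKM at E0.5 compared with 2.24, 1.43 and 27.6 FPKM at E4.5. Its direction turned with that library, from a log2 fold change of -0.89 to 1.53, and even without it E0.5 replicate 3 lay below E4.5 replicate 1. The same library was the highest of its stage for Ltbp1, with 12.96 FPKM against 2.47 to 7.58 FPKM, and for Mfap4, with 15.1 FPKM against 3.02 to 9.22 FPKM. Thbs2 had a log2 fold change of 4.39 without it. The fitted sign also turned, without a call, at Fmod (-0.82 to 0.29), Ltbp3 (-0.06 to 0.46), Sparc (-0.09 to 0.31), Mfap5 (0.06 to -0.22), Fn1, and Bgn, Eln and Fbn1, which were near 0. Has1 went from -0.86 to -0.21 and Loxl2 from 0.35 to 0.94, also without a call. Of the members called with all libraries, Vcan went from -3.26 to -3.48, Lox from 2.19 to 1.84, Dcn from 1.55 to 1.35, Ltbp4 from 1.26 to 1.20 and Aspn from 1.19 to 1.18. How much of these shifts comes from RNA of other tissues in this library was not tested.

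**Figure D3:**
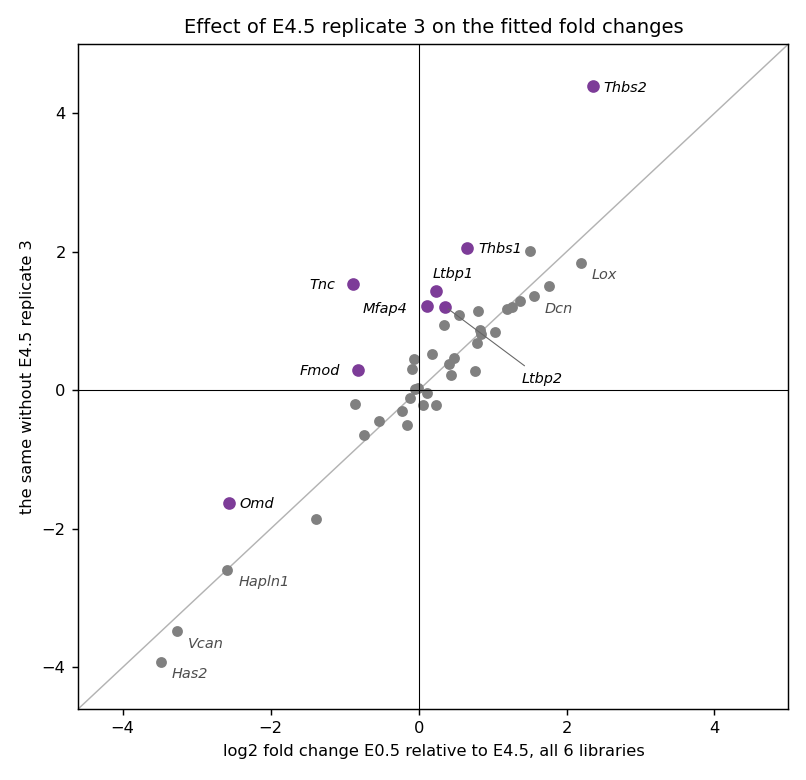
Log2 fold change of E0.5 relative to E4.5 for the 44 tested members, with all 6 libraries (horizontal axis) and without E4.5 replicate 3 (vertical axis), and the line of equal values in grey. The 8 purple points moved by more than 0.8, which were Tnc, Thbs2, Thbs1, Ltbp1, Mfap4, Ltbp2, Fmod and Omd and all moved upwards, while Vcan, Hapln1, Has2, Lox and Dcn stayed near the line.

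Between E18.5 and E15.5 the members that met the criterion were Thbs1, Thbs2, Fn1, Fbln7 and Hapln3, and all of them were higher at E18.5. In limma's test on log2(FPKM + 0.1), 5 of the 43 tested members met the criterion (against 6.05% of all 30928 tested rows). All 5 were upregulated at E18.5 (11.6%, against 3.11% of all rows and 2.68% of the protein-coding rows) and 0 were lower (against 2.93% and 2.35%). No member had an adjusted p below 0.05 in limma, which 0.0259% of all rows and 0.0401% of the protein-coding rows did, and 9 members had an unadjusted p below 0.05 whatever their fold change (20.9%, against 12.2%). The FPKM of the groups did not overlap at 8 members that were higher at E18.5 (18.6%, against 10.9% of all rows) and at 3 that were lower (6.98%, against 8.96%). The median log2 fold change was 0.20, beside 0.02 for all tested rows and 0.04 for the protein-coding rows. Fold changes on this scale understate the change of genes with low FPKM.

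The thrombospondin genes Thbs1 and Thbs2 were upregulated at E18.5. Thbs1 had 85.5, 59.3 and 42.05 FPKM at E18.5 compared with 16.7, 26.0 and 28.1 FPKM at E15.5. No libraries overlapped, and Thbs1 was 2.59-fold higher at E18.5 (log2 fold change 1.37, standard error 0.31, limma adjusted p = 0.172). Thbs2 had 27.4, 19.8 and 13.7 FPKM at E18.5 compared with 7.03, 8.31 and 10.2 FPKM at E15.5. It was 2.31-fold higher, again with separate groups (limma adjusted p = 0.171). Within E18.5 both genes had the same order of libraries, with replicate 1 the highest and replicate 3 the lowest. Fibronectin (Fn1, chr1:71585520-71653175 in the first table), the adhesive protein that cells use to lay down other matrix, had 487, 385 and 308 FPKM at E18.5 compared with 139, 240 and 201 FPKM at E15.5. The groups did not overlap and Fn1 was 2.05-fold higher, but without E15.5 replicate 1, its lowest library, the log2 fold change went from 1.04 to 0.82 and under the minimum. Fbln7 had 0.701, 0.540 and 0.720 FPKM at E18.5 compared with 0.186, 0.320 and 0.304 FPKM at E15.5. Its groups were separate at a level near the pseudocount, and the log2 fold change was 1.04, or 0.86 without E15.5 replicate 1, 0.99 and 0.97 without E18.5 replicate 1 or 3, and 0.38 with a pseudocount of 1. The link protein Hapln3 had 0.405, 0.342 and 0.392 FPKM at E18.5 compared with 0.167, 0.120 and 0.103 FPKM at E15.5. It was also separate and low, and its log2 fold change of 1.07 was 1.18 without E15.5 replicate 1, 0.98 and under the minimum without E15.5 replicate 3, and 0.29 with a pseudocount of 1.

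Without E15.5 replicate 1, the library with the high level of Prl8a2, 3 members met the criterion (against 5.01% of all rows). Hapln3, Thbs1 and Thbs2 were still upregulated at E18.5 (against 2.44%) and 0 members were lower (against 2.57%). No member passed the adjusted p, which 0.0841% of all rows did. That library was the lowest of its stage at 22 of the 43 tested members. It had the lowest E15.5 level of Ltbp4, with 8.07 FPKM against 17.8 and 19.4 FPKM in its group, of Tnxb, with 9.35 against 19.6 and 23.1 FPKM, and of Loxl1, with 9.74 against 19.5 and 26.1 FPKM. The log2 fold changes of these 3 genes were 0.70, 0.44 and 0.53 with it and 0.30, 0.04 and 0.13 without it. The median over the members went from 0.20 to 0.07. Leaving out E18.5 replicate 1 instead left Hapln3 and Thbs1 above the criterion, with values of 0.96 for Thbs2 and 0.87 for Fn1. Epithelial markers moved with the day as well, with a summed level of 514 to 710 FPKM at E18.5 compared with 179 to 362 FPKM at E15.5, and 5 endothelial markers the other way, with 69.6 to 98.1 FPKM at E18.5 compared with 141 to 171 FPKM at E15.5. Mesothelium markers did not overlap either, with 44.97, 20.4 and 19.3 FPKM in replicates 1, 2 and 3 at E18.5 and 18.49, 15.9 and 15.1 FPKM at E15.5. This separation rests on Msln, 1 of the 4 markers, with 29.2, 15.7 and 12.4 FPKM at E18.5 and a 2.14-fold higher fitted level. The groups overlapped at the other markers, with log2 fold changes of -0.22 to 0.02. The trophoblast and placenta markers summed to 44.4 to 75.3 FPKM at E18.5 and 3.92 to 34.1 FPKM at E15.5. The gap between these sums rests on Tpbpa, 1 of the 6 markers, with 42.2, 52.7 and 31.9 FPKM at E18.5 and a 16.2-fold higher fitted level. The groups overlapped at the other trophoblast and placenta markers, with log2 fold changes from -0.36 for Prl3b1 to 2.16 for Prl2c2. Of these, only Psg21 met the criterion, as higher at E18.5. The decidua markers summed to 45.3 to 62.6 FPKM at E18.5 and 74.6 to 1345 FPKM at E15.5. Prl8a2 was lower in every E18.5 library, with 40.2, 47.8 and 58.7 FPKM against 1342, 72.1 and 86.0 FPKM, while Wnt4 was 2.36-fold higher at E18.5. The part of all these markers in the values of the members was not tested.

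**Figure D4:**
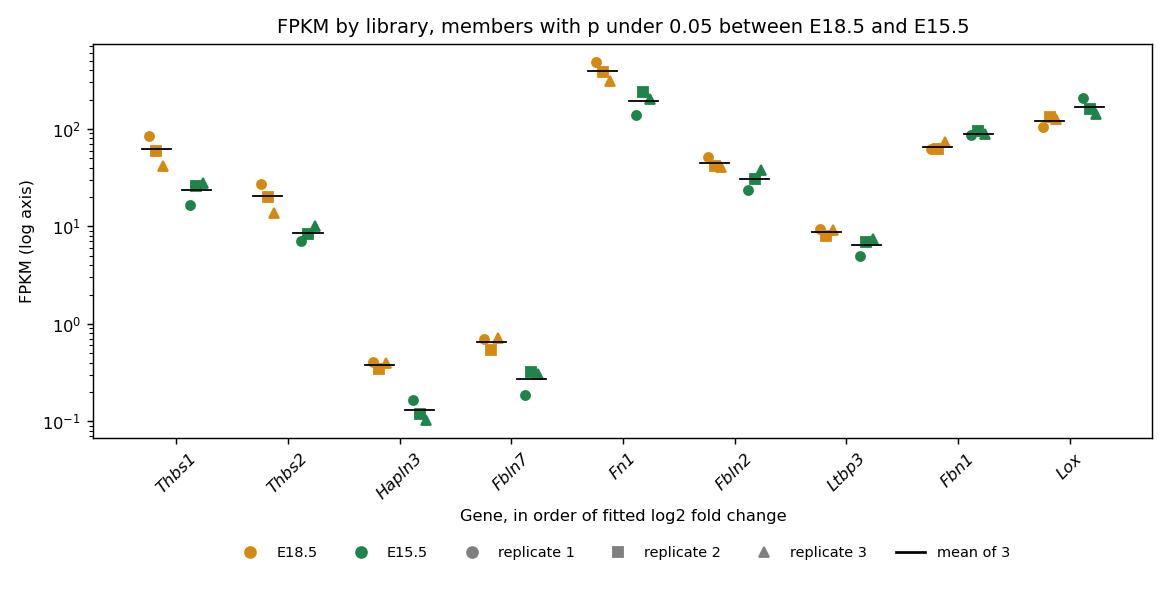
FPKM (log axis) of the 9 members with an unadjusted p under 0.05 between E18.5 (orange) and E15.5 (green), 1 symbol per library and a bar at the mean of 3. Thbs1, Thbs2, Hapln3, Fbln7 and Fn1 met the criterion, Fbln2 and Ltbp3 were higher and Fbn1 and Lox lower at E18.5 by less than the minimum, and the groups did not overlap at any of the 9.

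No other tested member met the criterion at the labor stage, while several were among the more abundant genes of the list. No proteoglycan of the small leucine-rich class met the criterion, and the groups overlapped at all 8. Dcn had 373 ± 4.61 FPKM (SD, n = 3) at E18.5 compared with 389 ± 65.6 FPKM (SD, n = 3) at E15.5, and Lum had 253 ± 4.41 and 279 ± 49.9 FPKM (SD, n = 3). At E15.5 replicate 1 was the highest and replicate 2 the lowest library for both genes. Vcan had 15.45 ± 1.04 against 16.9 ± 1.70 FPKM and Has2 had 1.74 ± 0.600 against 1.96 ± 0.610 FPKM (SD, n = 3). Acan and Hapln1 were under the minimum of the test, with at most 0.104 and 0.134 FPKM in a library. Fbn1, the backbone of the microfibrils, was the member of the fibre core whose groups were separate, with 61.7, 62.1 and 74.0 FPKM at E18.5 compared with 85.8, 94.1 and 88.4 FPKM at E15.5. It was lower at E18.5 by a log2 change of -0.44 (standard error 0.14), which did not reach the minimum. Lox also had separate groups, with 104, 132 and 127 FPKM at E18.5 compared with 207, 159 and 143 FPKM at E15.5, which is a log2 change of -0.48 (standard error 0.20). Its log2 change was -0.32 without E15.5 replicate 1, its highest library. Eln, with 12.4 ± 1.85 against 11.6 ± 5.03 FPKM (SD, n = 3), overlapped. Fbln2, Ltbp3 and Ltbp1 were higher in every E18.5 library by log2 fold changes of 0.55, 0.47 and 0.44. Without E15.5 replicate 1 these were 0.38, 0.30 and 0.37. Sparc was the most abundant member on both days, with 707 ± 52.4 and 647 ± 220 FPKM (SD, n = 3), and overlapped. Postn was lower in every E18.5 library, with 311 ± 19.4 against 368 ± 60.9 FPKM (SD, n = 3), a log2 fold change of -0.23. Without E15.5 replicate 1, Fbln1 and Loxl2 had log2 fold changes of -0.60 and -0.83, beside -0.24 and -0.56 with it.

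Whether the effect of the day differed between the stages was tested with limma as the log2 fold change of E0.5 against E4.5 minus that of E18.5 against E15.5, over all 12 libraries. Of 43 members tested in both tables, 9 had a difference of 1 or more in size and an unadjusted p below 0.05 (20.9%, against 11.9% of 21397 pairs of rows). They were 5 higher at the implantation stage (11.6%, against 5.42%) and 4 lower (9.30%, against 6.51%). Dcn, Lox and Vcan had an adjusted p below 0.05 in limma (6.98%, against 2.7% of all pairs). Lox had the largest positive value, 2.80 (standard error 0.51, limma adjusted p = 0.0184), since it was upregulated at E0.5 and had a negative fold change at E18.5. Dcn had a difference of 1.60 (standard error 0.37, limma adjusted p = 0.0482) and Vcan of -2.93 (standard error 0.32, limma adjusted p = 0.00178), and their log2 changes at the labor stage were -0.05 and -0.12. Lum, Aspn and Fbln1 had differences of 1.71, 1.09 and 1.02, and Omd, Has2 and Hapln3 of -2.36, -2.79 and -1.96, with adjusted p between 0.0618 and 0.196 in limma's test. With 1 library left out, Dcn, Lox, Vcan, Lum, Omd and Has2 met the criterion in 12 of 12 fits, Hapln3 in 11, Aspn in 10 and Fbln1 in 6. Hapln3 had opposite fitted signs in the stages, -0.89 and 1.07 on the scale of this fit. With all libraries Fbln7 and Thbs2 met the criterion at both stages, higher at E0.5 and at E18.5, but with 1 library left out Thbs2 met it in 1 of 6 fits at the implantation stage and in 5 of 6 at the labor stage, and Fbln7 in 6 of 6 and 3 of 6. They had differences of 0.73 and 1.79 that did not pass (limma adjusted p = 0.356 and 0.344). Without E4.5 replicate 3, 14 members met the criterion of this test (against 14.2% of all pairs), 9 of them higher (against 6.36%) and 5 lower (against 7.8%), and 9 passed the adjusted p (against 5.91%). Fbln1 was then lost, and Mfap4, Fbln5, Loxl2, Ltbp2, Thbs2 and Fn1 were added, with Thbs2 at 2.82 and Fn1 at -1.23.

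Several members are neighbours in the genome, and their values between E0.5 and E4.5 are given side by side. Positions are those of the first table, which match GRCm38. Dcn and Lum lie 47.0 kb apart on chromosome 10 and were 2.94-fold and 2.84-fold higher at E0.5. Hapln1 and Vcan lie 43.7 kb apart on chromosome 13 in opposite orientation, and both were lower at E0.5. Aspn, Omd and Ogn follow each other on the same chromosome with gaps of 14.9 and 15.2 kb, and their log2 fold changes were 1.19, -2.57 and 0.54, or 1.18, -1.63 and 1.09 without E4.5 replicate 3. Prelp and Fmod, 115.8 kb apart on chromosome 1, had values of 0.84 and -0.82, or 0.82 and 0.29 without that library. The rows of Acan and Hapln3 on chromosome 7 end 2 bases from each other on opposite strands, and since the use of strand in counting is not given in the sources used here, reads near that border cannot be assigned with certainty. The row of Hyal1 merges it with Hyal3 and a further gene, and that of Loxl2 with a microRNA and, in the table of the labor stage, also with Gm21451. Another 18 rows of the first table and 9 of the second carry the name of a member without an Ensembl transcript and were not counted as members. Of these, 3 were higher and 1 was lower at E0.5 (against 6.37% and 5.82% of all tested rows). At E18.5, 1 was higher and 1 lower (against 3.11% and 2.93%).

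The 45 genes together took 0.246% to 0.309% of the summed FPKM of an E0.5 library and 0.146% to 0.268% of an E4.5 library, where the highest value was that of replicate 3. They took 0.449% to 0.611% at E15.5 and 0.514% to 0.603% at E18.5, and these ranges overlapped. Levels of the 2 tables were normalized apart and were not tested against each other.

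The wider matrix pathway was read from 91 related genes that are not members. Between E0.5 and E4.5, 7 of 83 tested related genes were upregulated at E0.5 and 11 were lower (against 6.37% and 5.82% of all rows), and 1 passed the adjusted p of edgeR's test, the row of the glypican Gpc2, which also holds Gal3st4 and Gm43720. Other hyaluronan genes had 1 higher and 2 lower of 12, and glycosaminoglycan synthesis had 1 and 3 of 17. Other proteoglycans had 3 higher and 2 lower of 19, other matricellular genes 1 and 3 of 14, and the versican-cleaving proteases 1 and 1 of 5, while 0 of 10 other elastic fibre genes and 0 of 6 TGF beta ligands and receptors met it. Nov, a matricellular gene of the CCN family, was higher at E0.5, with 13.1, 6.98 and 10.4 FPKM against 0.836, 2.54 and 0.249 FPKM (log2 fold change 3.08). The proteoglycans Optc and Podn were higher too, by 1.78 and 1.47. Without E4.5 replicate 3 the values of Nov, Optc and Podn were 2.59, 1.30 and 1.87. Xylt1, which starts glycosaminoglycan chains, was lower at E0.5 (-2.51, or -1.23 without E4.5 replicate 3). For Wisp2 and Thbs4 the values of -7.37 and -5.14 rest on E4.5 replicate 3, with 14.3 and 20.4 FPKM in that library, and they were 0.53 and -1.73 without it. At E18.5, 3 of 82 related genes were upregulated and 4 were lower (against 3.11% and 2.93% of all rows). The higher ones were the protease Adamts4, which cleaves versican (log2 fold change 1.52), and the CCN family genes Ctgf (1.29) and Cyr61 (1.25). Itih1, whose protein binds hyaluronan, fell by 2.77 on the log2 scale, osteopontin (Spp1, in a row with Gm42793) by 1.91 and Tgfb2 by 1.08, and Srgn was the fourth. Without E15.5 replicate 1 the log2 fold changes of Itih1, Spp1 and Tgfb2 were -2.88, -1.44 and -1.32. No related gene had an adjusted p below 0.05 in limma. Among the other thrombospondins, named after their values were seen, Thbs4 was lower in every E18.5 library without reaching the minimum (log2 fold change -0.93, limma adjusted p = 0.0911), and Thbs3 overlapped between the groups.

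Of the marker lists, epithelium had 3 of 6 genes higher at E0.5, leukocytes 3 of 5, stromal fibroblasts 2 of 6, mesothelium 1 of 4 and smooth muscle, fat, oviduct, erythroid and trophoblast genes 0. Endothelium had 3 of 5 lower at E0.5, the ovary 6 of 7 and the yolk sac 1 of 2, and the decidua had 1 higher and 1 lower of 4. Of all tested rows, 6.37% were higher and 5.82% lower by the criterion. E4.5 replicate 3 was the highest library at each of the 7 ovary markers. At Hsd3b1 it had 519 FPKM against 0.0541 and 0.0475 FPKM in its group. Marker counts are given with all libraries only. At E18.5, epithelium had 3 of 6 higher, trophoblast genes 2 of 6, the ovary 2 of 5, and the decidua, the oviduct and the mesothelium 1 each, while endothelium had 1 of 5 lower, erythroid genes 2 of 5 and the yolk sac 1 of 6. Smooth muscle, stromal fibroblast, fat and leukocyte genes had 0 at the labor stage. Of all tested rows of that stage, 3.11% were higher and 2.93% lower at E18.5.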

How the data were processed

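RNA-seq of uteri from 12 mice was analysed. Per the labels, poly(A) RNA was sequenced on a NovaSeq, whereas the methods name removal of ribosomal RNA and a HiSeq. Per the methods, Cutadapt was used for trimming, Bowtie2 and Tophat2 for alignment, StringTie for assembly and Ballgown for expression values. The submitters' processing notes list Bowtie 0.12.2, HISAT2 2.0, StringTie 1.3.0 and the builds mm8 and mm10. FPKM were deposited by the authors for each stage separately, and whole-number counts were deposited for the implantation stage only. How reads were assigned to genes is not given in the sources used here. Of 19279 protein-coding rows named in RefSeq, 19274 overlap that gene in GRCm38. The value 0.0001, which stands for 0 in the first table (count 0 at all 168941 such values), was set to 0.

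Rows were tested in R 4.3.3 where the 6 libraries of their stage averaged 0.1 FPKM or more. Counts went into the quasi-likelihood F-test of edgeR 4.0.16 after TMM scaling. For the labor stage, log2(FPKM + 0.1) went into limma 3.58.1 with its trend option. The difference between stages was tested with limma on 21397 of 32724 pairs of rows that share Ensembl transcripts. Adjustment of p-values was by Benjamini and Hochberg across every tested row. Standard errors of edgeR are the absolute log2 fold change divided by the square root of F. Positive values mean higher at E0.5 or at E18.5. p-values measure the spread between 3 mice per group.

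The genes, their roles, the related lists and the marker lists were chosen with earlier results of these data known. Described with every library are members that meet the criterion of the study or the adjusted p, in the stage where they do. Members that differ between stages are given by the fitted difference. Best known members of a class are given by group means, and of the related genes the 3 largest changes per direction with a mean of at least 1 FPKM. Alternatives were other scalings, filters and pseudocounts, DESeq2 1.42.0, limma on FPKM, protein-coding rows only, a block for the replicate number and the omission of single libraries. The replicate numbers do not pair the mice, since deviations of equally numbered libraries correlated between -0.063 and 0.018. Tests were checked on simulated data, with counts for edgeR and DESeq2 and separately simulated FPKM for limma. On the same simulated counts DESeq2 made more false calls than edgeR, and it exceeded the limit first set. These counts had a common dispersion and no outlying library, so the check does not cover a library such as E4.5 replicate 3. Tables were made in Python 3.11.15 with pandas 2.3.3.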

Additional observations from a re-analysis of the deposited data

Results flagged for a closer look

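At 3 members the effect of the day differed between the stages by an adjusted p under 0.05 in limma's test of the difference, given as the log2 fold change of E0.5 against E4.5 minus that of E18.5 against E15.5. Lox had a difference of 2.80, and all 3 E0.5 libraries lay above the E4.5 libraries while all 3 E18.5 libraries lay below the E15.5 libraries. Without E4.5 replicate 3 it was 2.36. Dcn had a difference of 1.60, and 1.39 without that library, with overlapping groups at the labor stage. Vcan had a difference of -2.93, and -3.15 without that library, also with overlapping groups at the labor stage. Over the 12 fits with 1 library left out, the adjusted p was under 0.05 in 12 for Vcan, in 9 for Lox and in 2 for Dcn.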

How the results depend on the processing

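The 13 members called between E0.5 and E4.5 were 12 to 14 under the other settings, and 11 to 19 with 1 library left out, where 19 was reached without E4.5 replicate 3. The count past the adjusted p was 16 with DESeq2, whose false calls outnumbered those of edgeR in simulated counts that held no outlying library. It was 3 with edgeR, 5 with limma on log2(FPKM + 0.1), 6 with a mean of at least 1 FPKM, 9 with protein-coding rows only and 0 with the replicate block. It was 0 to 14 with 1 library left out, with 14 without E4.5 replicate 3, 1 without E4.5 replicate 1 or 2 and 0 without any of the E0.5 libraries. The median of the members, 0.24, was 0.33 with upper-quartile factors and with protein-coding rows only, 0.42 with limma, 0.36 with a mean of at least 1 FPKM and 0.49 with the replicate block, and 0.11 to 0.46 with 1 library left out. Fbn1 and Sparc, both near 0, turned to 0.0351 and 0.00183 with upper-quartile factors and to 0.0385 and 0.00630 with protein-coding rows only. At the labor stage the 5 called members were 3 with a pseudocount of 1 and 3 with a mean of at least 1 FPKM, and 2 to 5 with 1 library left out, where 2 were left when E18.5 replicate 1 was dropped and 3 when E15.5 replicate 1 was. With quantile normalization Dcn and Lum turned to 0.17 and 0.0867 there. The median was 0.07 to 0.36 with 1 library left out. The 9 members whose effect differed between stages were 7 to 14 with 1 library left out, with 14 without E4.5 replicate 3. Quantile normalization moved the median of all pairs by 0.11 in that test and gave 10 members. The cause of these shifts was not tested.

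Of the values for single genes under the other settings, 168 of 180 at the implantation stage, 168 of 173 at the labor stage and 33 of 36 for the difference kept their direction and their side of the criterion. With 1 library left out, 125 of 156, 132 of 150 and 99 of 108 did, where 20, 9 and 9 lost the criterion and 9, 9 and 0 turned their sign. At the implantation stage the ranges were -0.0725 to 0.40 for Eln, -0.19 to 0.0358 for Fbn1, -0.33 to 0.31 for Sparc and -0.22 to 0.88 for Fn1, and Wisp2 ran from -8.20 to 0.53. At the labor stage they were -0.10 to 0.24 for Aspn, -0.16 to 0.0785 for Dcn, -0.23 to 0.0138 for Lum, -0.23 to 0.46 for Eln, -0.60 to 0.0120 for Fbln1, -0.36 to 0.12 for Has2 and -0.0686 to 0.43 for Sparc. The replicate block gave 14 called members at the implantation stage, 5 at the labor stage and 9 for the difference, and it added Hapln3 at -1.19. Counts limit the precision of Hapln1, Omd and Acan, and FPKM near the pseudocount that of Hapln3 and Fbln7 at the labor stage.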
